A study of Mus musculus with 4 samples.

Results

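HOXA5-FLAG chromatin immunoprecipitation followed by sequencing (ChIP-seq) of embryonic mouse lung gave 2 peak lists, and the 635 peaks of replicate 2 that overlapped no peak of replicate 1 by 1 bp or more are described here. They made up 22.4% (95% Wilson interval 20.9 to 24.0) of the 2832 peaks of replicate 2, and the 2 lists held 7121 peaks in all. The lungs came from E15.5 embryos carrying an epitope-tagged knock-in allele, Hoxa5FLAG/FLAG, although the sample titles use the abbreviation wt. Immunoprecipitates and inputs, 2 of each, all carried that genotype, and no untagged control, treatment or other age was analysed here. The inputs were not analysed here either, so no peak was compared with input signal in this report. Whether the authors called their peaks against input is not given in the sources used. The labels do not tell if each replicate had its own litter or pool of tissue, so agreement and disagreement between the lists may be partly technical. The members were chosen by the overlap of the lists, so their lack of a partner is a description and not a finding. With 1 library on each side, every test below compares sets of peaks in these 2 lists and not biological conditions. It treats peaks as independent and covers counting error only. Neither list gives counts of reads, and sequencing depth is therefore unknown.

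HOXA5 belongs to the HOX family of DNA-binding homeodomain proteins, which pattern the body axis and organs. In the embryonic lung it is expressed in the mesenchyme, and loss of the gene in mice disturbs formation of the trachea and lung. Homeodomains recognise short AT-rich words such as TAAT, and HOX proteins often bind next to PBX and MEIS cofactors, the latter of which recognise TGACAG. A ChIP-seq peak is a stretch where the reads of an immunoprecipitate pile up above a modelled background. Weak peaks near the calling threshold are commonly found in only some replicates of an experiment.

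Replicate 2 only peaks rarely touched a promoter, as was true of the other sets of peaks. The RefSeq promoter table (GRCm38.p6, which is mm10) gives windows from 250 bases before to 50 after a transcription start, and 8 of the 595 members on chromosomes in that table (1.34%, 0.683 to 2.63) overlapped 9 such windows. The share was 1.96% for replicate 2 peaks with a replicate 1 overlap and 3.51% for replicate 1 peaks without a replicate 2 overlap. Printed here are the window at the highest fold enrichment, Fanci, and the 4 windows with a searched word inside the peak. Each is written 5′ to 3′ on the strand of its gene, and capitals mark the bases inside the peak. Fanci, a DNA repair gene of the Fanconi anaemia pathway, has its window at chr7:79392088-79392387 on the plus strand. Psmd8, which encodes a proteasome subunit, has it at chr7:29180624-29180923 on the minus strand, and Atf4, a transcription factor gene of the integrated stress response, at chr15:80254934-80255233 on the plus strand. The last windows belong to long noncoding RNA genes, Gm34637 at chr12:12669868-12670167 on the minus strand and Gm30925 at chr8:115830270-115830569 on the plus strand.
Fanci: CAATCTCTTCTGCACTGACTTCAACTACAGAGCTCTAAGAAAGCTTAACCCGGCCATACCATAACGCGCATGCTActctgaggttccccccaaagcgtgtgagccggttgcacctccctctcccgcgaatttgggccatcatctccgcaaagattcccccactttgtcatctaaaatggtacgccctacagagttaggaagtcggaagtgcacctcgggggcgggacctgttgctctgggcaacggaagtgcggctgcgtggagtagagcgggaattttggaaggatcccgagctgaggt
Psmd8: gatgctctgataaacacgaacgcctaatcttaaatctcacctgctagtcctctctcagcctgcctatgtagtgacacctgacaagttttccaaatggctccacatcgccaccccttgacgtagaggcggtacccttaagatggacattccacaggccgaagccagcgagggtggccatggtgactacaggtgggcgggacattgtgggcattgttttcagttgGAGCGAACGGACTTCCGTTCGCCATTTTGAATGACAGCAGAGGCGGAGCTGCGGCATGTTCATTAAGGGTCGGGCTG
Atf4: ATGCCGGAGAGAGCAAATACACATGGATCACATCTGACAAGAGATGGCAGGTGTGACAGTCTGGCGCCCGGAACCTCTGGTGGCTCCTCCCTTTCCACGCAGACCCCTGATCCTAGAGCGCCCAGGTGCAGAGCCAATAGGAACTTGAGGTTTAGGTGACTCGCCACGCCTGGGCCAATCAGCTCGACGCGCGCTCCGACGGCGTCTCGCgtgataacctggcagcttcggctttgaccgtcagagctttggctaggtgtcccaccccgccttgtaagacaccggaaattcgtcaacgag
Gm34637: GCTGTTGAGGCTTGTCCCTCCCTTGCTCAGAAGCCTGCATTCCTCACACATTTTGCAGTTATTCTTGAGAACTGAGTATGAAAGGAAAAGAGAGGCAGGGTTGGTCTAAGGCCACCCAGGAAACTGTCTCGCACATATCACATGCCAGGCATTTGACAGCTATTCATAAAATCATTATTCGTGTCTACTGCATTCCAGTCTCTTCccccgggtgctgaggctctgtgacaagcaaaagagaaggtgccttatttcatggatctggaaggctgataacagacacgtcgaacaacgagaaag
Gm30925: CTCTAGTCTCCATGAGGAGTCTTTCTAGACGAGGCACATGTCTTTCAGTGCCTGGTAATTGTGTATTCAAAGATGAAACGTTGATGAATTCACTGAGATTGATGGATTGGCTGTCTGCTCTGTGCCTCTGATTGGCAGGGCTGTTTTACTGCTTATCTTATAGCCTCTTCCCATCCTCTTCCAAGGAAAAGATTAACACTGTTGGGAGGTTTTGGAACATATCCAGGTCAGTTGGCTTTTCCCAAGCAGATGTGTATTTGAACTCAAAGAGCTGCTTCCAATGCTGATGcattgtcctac

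The peak at Psmd8 (chr7:29180433-29180700) had 2.59-fold enrichment, a −log10 q of 3.36 and its summit 14 bp from the transcription start. Both numbers come from the authors' peak caller, refer to the summit and rank a peak within its own list. The word TGACAG lay at bases 255 to 260 of the Psmd8 window, and TAAT on the opposite strand at bases 285 to 288, both inside the peak. At Atf4 (peak chr15:80254878-80255143, 2.76-fold, −log10 q 4.62) TGACAG lay at bases 54 to 59. At Gm34637 (peak chr12:12669963-12670306, −log10 q 3.06) TGACAG lay at bases 154 to 159 and TAAT on the opposite strand at 174 to 177. The Gm30925 window lay with 289 of its 300 bases inside the peak chr8:115830248-115830558 (3.24-fold, −log10 q 7.49) and held TAAT at bases 56 to 59 and, on the opposite strand, at 192 to 195. The 75 bases of the Fanci window inside the peak held none of the words. TAAT and TGACAG are common in promoters. On either strand TAAT was found in 58.0% and TGACAG in 19.2% of all 32851 windows, and TAATTA, which contains TAAT, in 5.29%. TGATTGAT, TGATTAAT and TTGATTGA were each found in under 1% of windows (0.746%, 0.700% and 0.785%), the second of which also contains TAAT. None of these 3 words, and no TAATTA, was found in the 9 windows. A match is a description of the letters and not a binding site. The other windows belonged to Glul, Myl4, Gm38440 and Gm17801.

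Of 1005 miRNA hairpins in the RefSeq table, 2 overlapped a replicate 2 only peak. No such count is given here for the other sets of peaks, so these 2 are no result about the members. The mature sequences of the 2 are shown with the seed, bases 2 to 8, in capitals. The hairpin of Mir30a (chr1:23272269-23272339, plus strand) lay wholly inside the peak chr1:23272110-23272438, which had 2.56-fold enrichment, a −log10 q of 3.82 and 377 kb to the nearest replicate 1 peak. The miR-30 family is abundant in many tissues, and the nearest coding gene was Ogfrl1, 94188 bp from the summit. The hairpin of Mir8114 (chr1:153899926-153900036, plus strand) overlapped the peak chr1:153899945-153900223 at the start of Glul, the glutamine synthetase gene, with 3.01-fold enrichment and a −log10 q of 6.35. The 3 mature miRNAs have different seeds.
mmu-miR-30a-5p: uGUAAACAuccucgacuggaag
mmu-miR-30a-3p: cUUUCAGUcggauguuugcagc
mmu-miR-8114: uCACCCAUcuccucuccgccu

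Replicate 2 only peaks were the weak part of their list. Their fold enrichment ran from 1.38 to 5.23 with a median of 2.78 and quartiles of 2.42 and 3.21. Their −log10 q had a median of 5.33, with quartiles of 3.64 and 7.54. The 2197 replicate 2 peaks with a partner had a median fold of 3.62 and a median −log10 q of 11.9. Ranked by −log10 q, 553 of the 635 (87.1%) fell among the lower 1416 of the 2832 peaks, 28 among the best 1000 and 5 among the best 500. The best rank by fold enrichment was 369. Strength decides which peaks pass the caller in each library, so it is tied to the choice of these peaks, and no test was made.

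**Figure D1:**
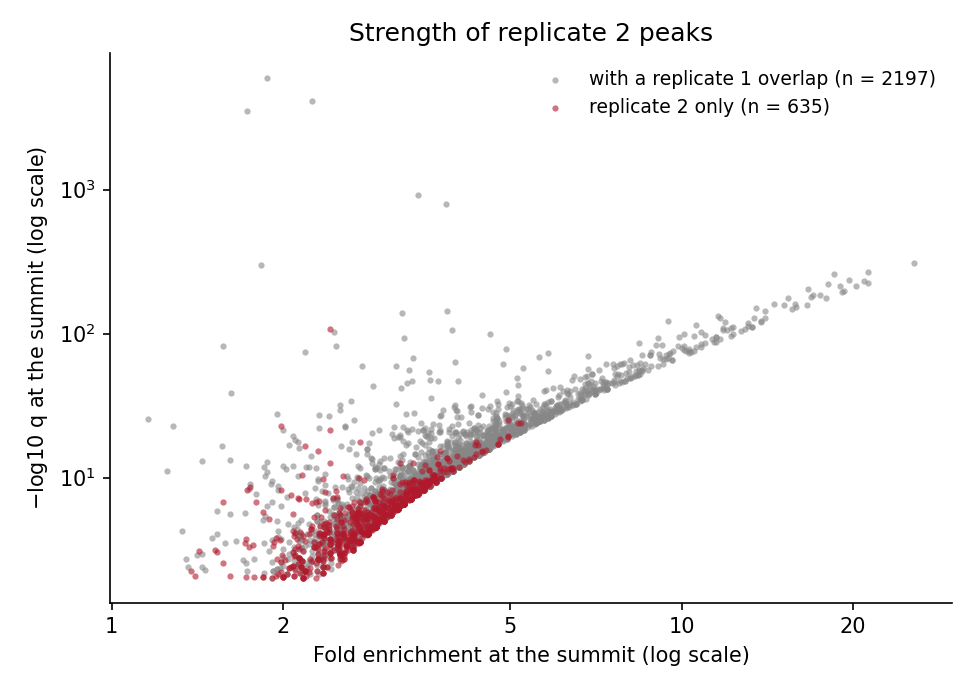
Fold enrichment (x axis, log scale) and −log10 q (y axis, log scale) of every replicate 2 peak, with the 635 replicate 2 only peaks in red and the 2197 others in grey. Red points lie at the lower left and reach no further than 5.23-fold, and the single red point near 108 on the y axis is on a scaffold.

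The share of replicate 2 peaks without a partner was lowest among the strongest and the longest peaks. Below a −log10 q of 3 it was 52.1% (44.5 to 59.7), from 5 to 10 it was 31.3% (28.4 to 34.4), and from 20 to 50 it was 1.08% (0.460 to 2.49). By fold enrichment it did not fall steadily, with 34.0% (25.5 to 43.7) below 2-fold, 43.6% (38.5 to 48.8) from 2 to 2.5 and 4.63% (3.02 to 7.04) from 4 to 5. Peaks of at most 300 bp lacked a partner in 35.9% of cases (31.6 to 40.4), and peaks above 2000 bp in 4.41% (2.04 to 9.29). The members ran from 258 to 3555 bp with a median of 370 bp, against 461 bp for replicate 2 peaks with a partner and 338 bp for the 2094 replicate 1 peaks without one. Longer than 1000 bp were 52 members (8.19%, 6.30 to 10.6), against 20.3% (18.7 to 22.1) of the replicate 2 peaks with a partner. A longer peak has more bases that can overlap, so length too is tied to the rule.

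**Figure D2:**
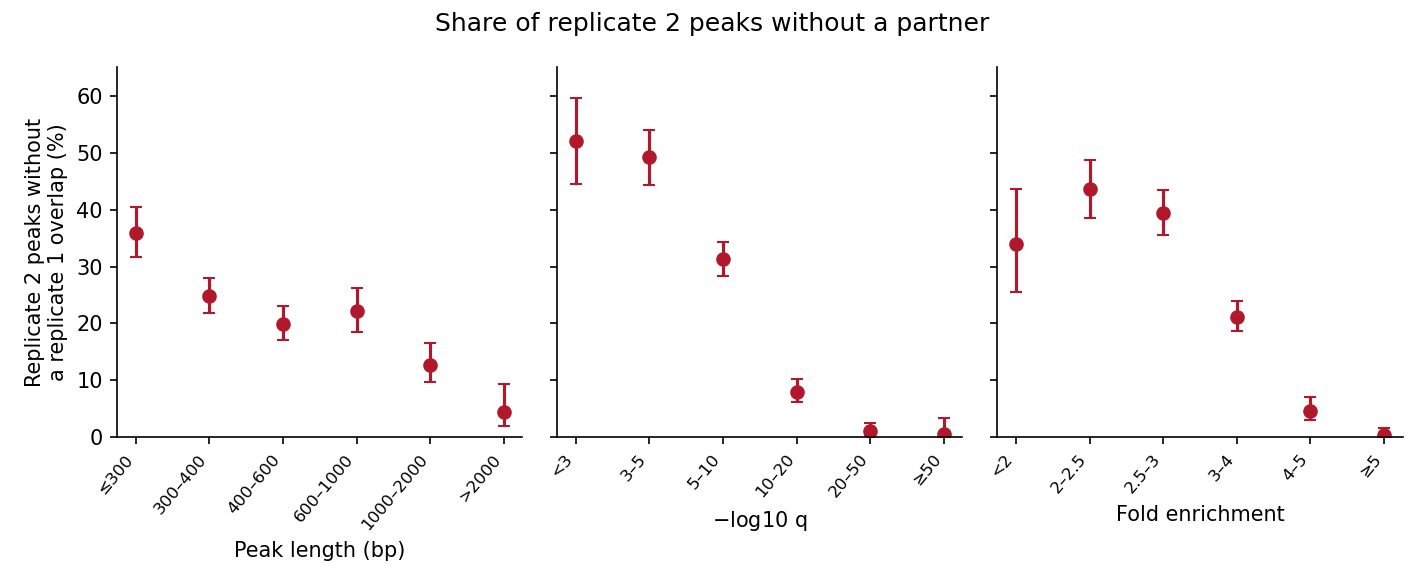
Share of replicate 2 peaks without a replicate 1 overlap (y axis, percent, with 95% Wilson intervals) by peak length, −log10 q and fold enrichment (x axes). The share is 52.1% in the lowest class of −log10 q and 0.625% in the highest, at 50 and above.

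Of the 635, 629 lay on a chromosome or scaffold with a replicate 1 peak, and their median gap to it was 194 kb (exact interval of the median 159 to 224). Within 1 kb of a replicate 1 peak lay 31 (4.93%), within 10 kb 71 (11.3%) and within 100 kb 239 (38.0%), while 38 (6.04%) were more than 1000 kb away. Replicate 1 only peaks had a median gap of 219 kb to the nearest replicate 2 peak. That gap was measured to 2832 replicate 2 peaks, and the gap of members to 4289 replicate 1 peaks, so the 2 medians are not directly comparable. To the nearest shared replicate 2 peak, which is a smaller set of targets, members had a median of 391 kb, with 24.0% within 100 kb. Shared replicate 2 peaks had a median of 285 kb to the nearest other shared peak, with 28.0% within 100 kb. The nearest replicate 1 peak was itself shared for 328 of the 629 (52.1%), beside 51.2% of all replicate 1 peaks. Among the 31 within 1 kb it was shared for 17 and replicate 1 only for 14. Those 31 had a median fold of 2.70 and a median length of 331 bp, beside 2.79 and 372 bp for the rest. The 390 of the 629 farther than 100 kb from every replicate 1 peak were also that far from every shared replicate 2 peak. Each shared peak overlaps a replicate 1 peak, so the second condition adds little to the first. The widest gap, 6052 kb, was at a peak on the X chromosome (chrX:29679132-29679483, 2.05-fold) whose nearest coding gene was Gm10488, 297 kb away.

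**Figure D3:**
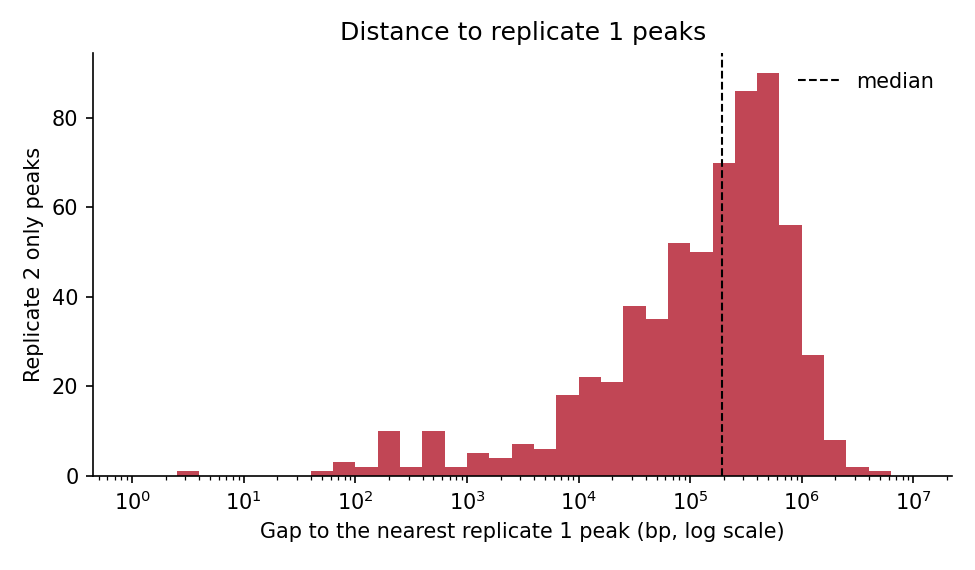
Number of replicate 2 only peaks (y axis) by gap to the nearest replicate 1 peak (x axis, bp, log scale), for the 629 peaks on a sequence with a replicate 1 peak. The dashed line is the median, 194 kb, and the few peaks at the left are those within 1 kb.

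The peaks nearest to the 1 bp limit were weak on both sides of it. Just inside the rule, a member inside Fgf14, which encodes an intracellular FGF-related protein of neurons (chr14:124654450-124654780, 2.66-fold), was 3 bp from a replicate 1 peak of 2.63-fold. A member inside Mcur1, a mitochondrial calcium uniporter regulator gene (chr13:43542149-43542645, 2.45-fold), was 58 bp from a peak of 2.94-fold. The next had gaps of 83 bp (37.6 kb from Srd5a2), 84 bp (215 kb from Khdrbs2) and 99 bp (9.61 kb from Hace1), with 2.53- to 3.26-fold enrichment. Just outside the rule, a replicate 2 peak 26.1 kb from Klf15 (chr6:90517781-90518111, 2.57-fold) overlapped a replicate 1 peak by 4 bp. Peaks inside Pcdh9 (2.73-fold), Tcf12 (2.35-fold) and Det1 (2.34-fold) overlapped by 6, 30 and 61 bp, and a scaffold peak of 1.85-fold by 68 bp. The folds on the 2 sides overlapped.

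The 15 members of at most 1000 bp with the highest fold enrichment ran from 4.32 to 5.23, and 5 of them had their summit inside a protein-coding gene. The highest lay 29.3 kb from Slc14a2, a urea transporter gene (chr18:78626080-78626438, 5.23-fold, −log10 q 23.8), and 70.2 kb from the nearest replicate 1 peak. Next was a peak 83.7 kb from Kif13b, a kinesin gene (chr14:64568557-64568890, 5.16-fold, −log10 q 23.8), also 70.6 kb from a replicate 1 peak. These were the 2 members above 5-fold. Slc14a2 was also assigned 2 shared replicate 2 peaks and 2 replicate 1 only peaks, and Kif13b 1 shared replicate 2 peak.
The peak at the Fanci promoter (chr7:79391857-79392162, 4.96-fold, −log10 q 19.3) had its summit inside the annotated span of the neighbouring gene Rlbp1, a retinaldehyde-binding protein gene. That summit was 250 bp from the nearest end of a coding gene. A peak 35.3 kb from Dapk2, a calcium-regulated kinase gene (chr9:66307403-66307719, 4.95-fold, −log10 q 25.1), was 30.4 kb from a shared replicate 1 peak of 25.4-fold. Cep70, a centrosomal protein gene, held a peak (chr9:99218355-99218619, 4.95-fold) that was 855 kb from any replicate 1 peak. A peak lay 29.5 kb from Cxcl12 (chr6:117210711-117211022, 4.80-fold), the chemokine ligand of CXCR4, whose gene also had 1 shared peak. Another lay 7.95 kb from Gdnf (chr15:7801773-7802653, 4.47-fold), a growth factor for enteric and other neurons, whose gene had no other peak. Tjp1, which encodes the tight junction protein ZO-1, held a peak of 4.35-fold (chr7:65520041-65520327) and also had 1 replicate 1 only peak. Snx24, a sorting nexin gene, held one of 4.54-fold (chr18:53316973-53317238), and Clca3b one of 4.34-fold (chr3:144828571-144829515). The others lay near Fshr, the follicle-stimulating hormone receptor gene (46.5 kb, 4.76-fold), AI429214 (17.4 kb, 4.46-fold), Amy2b (56.6 kb, 4.35-fold) and Gykl1 (7.55 kb, 4.32-fold), or 262 kb from Nt5e (4.40-fold). Of these 15 nearest genes, 10 had no other peak of either list assigned to them. Over all 439 genes with a member, 266 (60.6%) had neither a shared replicate 2 peak nor a replicate 1 only peak. The 10 are therefore no result about the strongest members. A nearby peak can also be assigned to another gene, as with the replicate 1 peak 30.4 kb from the member near Dapk2.

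The longest member joined a high fold to a length of 3555 bp. It lay 4.69 kb from Esx1, a homeobox gene of the placenta and testis on the X chromosome (chrX:137107829-137111383, 4.76-fold), within the pseudogene Gm15045. The next longest were a scaffold peak of 3031 bp (1.93-fold) and peaks inside Atp8a2, a phospholipid flippase gene (2312 bp, 3.95-fold), Snx9, a sorting nexin gene (2178 bp, 2.10-fold), and Muc4, a membrane mucin gene (2112 bp, 2.37-fold). The Snx9 peak was 942 bp from a shared replicate 1 peak of 3.51-fold. A low fold beside a high −log10 q was rare: 3 members (0.472%) were below 2.5-fold with a −log10 q of at least 20, as were 16 (0.728%) of the replicate 2 peaks with a partner. The 3, singled out after their values were seen, were a scaffold peak (2.42-fold, −log10 q 108), a peak inside Jarid2, a Polycomb-associated gene (chr13:44869584-44869880, 1.98-fold, 23.0), and a peak 5.48 kb from Cd209a, a dendritic cell lectin gene (chr8:3754403-3754664, 2.42-fold, 21.5).

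The 635 peaks were not 635 separate places. Joining members at most 1000 bp apart gave 617 loci, of which 18 were pairs and 599 single peaks. Protein-coding genes with 3 or more members were Zfhx3 and Gm52481. Zfhx3, a large zinc finger and homeobox transcription factor gene, held a close pair (chr8:108358736-108359152, 3.10-fold, and chr8:108359452-108359865, 2.60-fold) and another peak farther along the gene (chr8:108798083-108798352, 3.52-fold). The nearest replicate 1 peaks were 80.4 to 118 kb away, and Zfhx3 was also assigned 1 shared replicate 2 peak and 2 replicate 1 only peaks. Gm52481, on the Y chromosome, was the nearest coding gene to 4 members of 1.74- to 2.42-fold, 7.06 to 64.5 kb away, and also to 9 shared replicate 2 peaks. Those 4 were all the members on the Y chromosome, and the nearest replicate 1 peak was 1.33 to 9.25 kb away. Another 30 genes had 2 members each, and 407 had 1.

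The next comparison asked where these peaks lay relative to genes, which the overlap rule did not use. Of 628 members on assembled chromosomes, 258 (41.1%, 37.3 to 45.0) had the summit inside a protein-coding gene, 216 (34.4%) outside but within 100 kb of one, and 154 (24.5%) farther away. For replicate 2 peaks with a partner the shares were 39.7%, 33.4% and 26.9%, and none of the 3 differences passed (adjusted p = 0.666 for each, Fisher's exact test, two-sided, Benjamini-Hochberg over 3 classes). For replicate 1 only peaks they were 44.0%, 32.4% and 23.6% (Fisher's exact, adjusted p = 0.536, 0.536 and 0.669). In an alternative setting, all annotated genes were counted. Members then lay inside a gene less often than replicate 1 only peaks (48.6% against 53.7%, Fisher's exact, adjusted p = 0.0402). The other alternative settings of this share did not pass (Fisher's exact, adjusted p = 0.322 to 0.677). Host genes of members had a median length of 145 kb per peak, beside 194 kb for hosts of shared replicate 2 peaks and 184 kb for hosts of replicate 1 only peaks. The median of all coding genes was 17.2 kb. A longer gene has more bases that can hold a summit, so that contrast is no result about the members.

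Fewer replicate 2 only than replicate 1 only peaks lay next to a transcription start of a coding gene. Within 1 kb of a start lay 7 of 595 members (1.18%, 0.571 to 2.41), against 87 of 1994 replicate 1 only peaks (4.36%, 3.55 to 5.35), which is −3.19 percentage points (by Fisher's exact test, adjusted p = 3.41e-04 over 4 distance classes). Replicate 2 peaks with a partner had 33 of 2096 (1.57%, 1.12 to 2.20) there, and that difference did not pass (Fisher's exact, adjusted p = 0.568). Promoter windows come from the same table as these starts, so their count is not independent of the one above. They showed the same order, with 1.34% of members, 1.96% of shared replicate 2 peaks and 3.51% of replicate 1 only peaks overlapping a window. Against replicate 1 only peaks that difference passed (Fisher's exact, adjusted p = 0.0116), and against shared peaks it did not (0.388). The classes from 1 to 10 kb, 10 to 100 kb and above 100 kb did not differ by the test from either set. Replicate 1 only peaks had a higher median fold, 3.63, in their own list, and the part of strength or depth in this difference was not tested. This comparison was added after the data were seen.

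**Figure D4:**
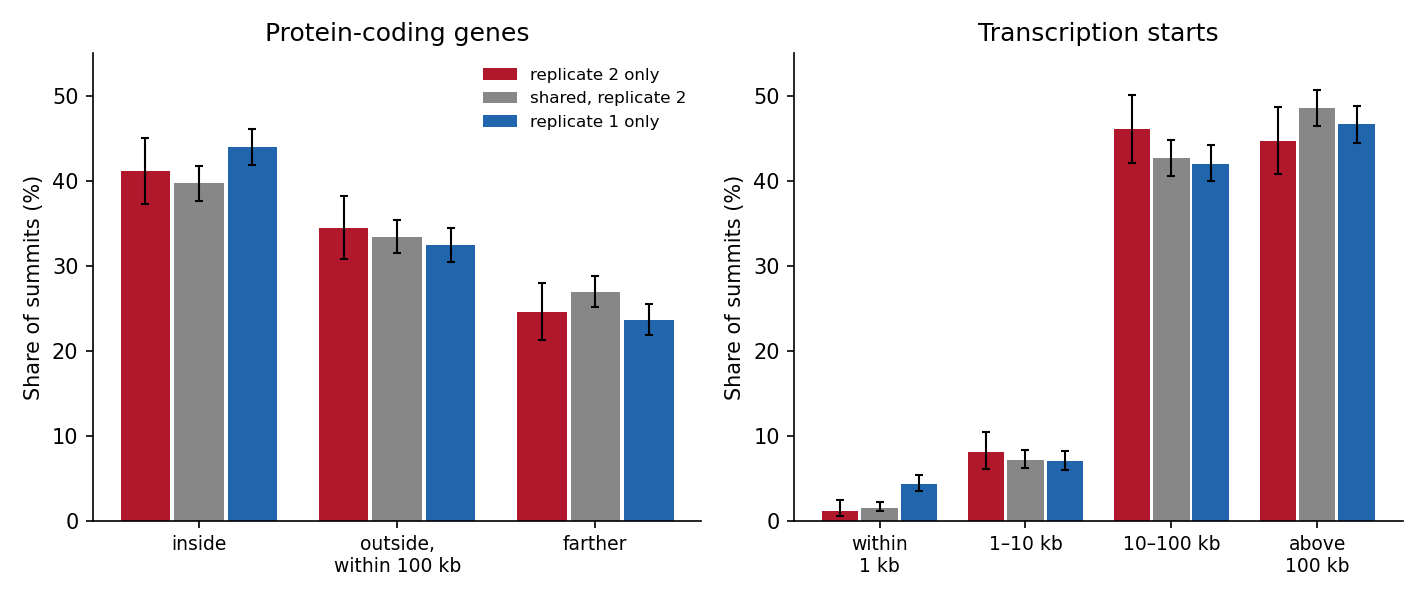
Share of summits (y axes, percent, bars from 0 with 95% Wilson intervals) by position against protein-coding genes on the left and by distance to the nearest transcription start of a coding gene on the right. Bars of the 3 sets are of similar height except within 1 kb of a start, where replicate 2 only peaks reach 1.18% and replicate 1 only peaks 4.36%.

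Members with a summit within 1000 bp of either end of a coding gene numbered 20 of 628 (3.18%, 2.07 to 4.87). The share was 2.07% (1.55 to 2.75) for shared replicate 2 peaks and 5.67% (4.76 to 6.75) for replicate 1 only peaks. By Fisher's exact test, added after the data were seen and adjusted over both comparisons, members stood 2.49 percentage points below replicate 1 only peaks (adjusted p = 0.0253), and the 1.12 points above shared peaks did not pass (adjusted p = 0.130). The Rlbp1 and Fanci peak was the highest of them. Lars, a leucyl-tRNA synthetase gene, had one 110 bp outside its end (chr18:42262191-42262472, 4.04-fold), and Bloc1s5, a subunit gene of a lysosome-related organelle complex, had one at 104 bp (chr13:38602466-38602741, 3.54-fold). Lrrc17 held one 455 bp from the nearest end of a coding gene (chr5:21543867-21544149, 3.70-fold). For a summit inside a gene, that end can belong to another gene. Hipk2, a nuclear kinase gene, held one 317 bp from such an end (chr6:38863735-38864174, 3.09-fold). Tmprss2, a protease gene of airway and other epithelia, had one 829 bp outside (chr16:97660325-97660658, 3.25-fold). Myl4, a myosin light chain gene, held one 411 bp from the nearest coding gene end (chr11:104550103-104550497, 2.83-fold). Of the 15 such peaks with the highest fold, those near Cacng3, Parp16, Nme9, Slc7a10, Zfp706 and Gm52259 had 2.87- to 3.54-fold enrichment. Zfp706 also held a weaker one of 2.65-fold, 63 bp from the nearest coding gene end. Among those 15, the peak at Cacng3 was nearest to replicate 1, at 4.82 kb.

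By chromosome, none of 22 classes (the 19 autosomes, X, Y and scaffolds, 0% called) differed between members and replicate 2 peaks with a partner after adjustment (Fisher's exact test), and 1, the X chromosome, had an unadjusted p below 0.05. Chromosome 1 held the most members, 56 (8.82%), against 6.55% of shared replicate 2 peaks (Fisher's exact, adjusted p = 0.440). X held 38 (5.98%), against 3.91% (Fisher's exact p = 0.0278, adjusted p = 0.440). Limited to peaks of at most 1000 bp, the X shares were 5.15% and 2.11% (Fisher's exact, adjusted p = 0.0101). That limit removed 49 of 86 shared X peaks (57.0%) and 8 of the 38 X members. When sharing was defined by summits at most 100 bp apart, the X shares were 6.70% and 2.57% (Fisher's exact, adjusted p = 3.02e-06). Against replicate 1 only peaks, 1 of the 22 classes passed (4.55% called), which was X, with 5.98% of members against 54 of 2094 (2.58%), or 3.41 percentage points more (by Fisher's exact test, adjusted p = 0.00184). This comparison by chromosome was added after the data were seen. Over whole lists, X held 4.38% of replicate 2 peaks and 3.19% of replicate 1 peaks.

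**Figure D5:**
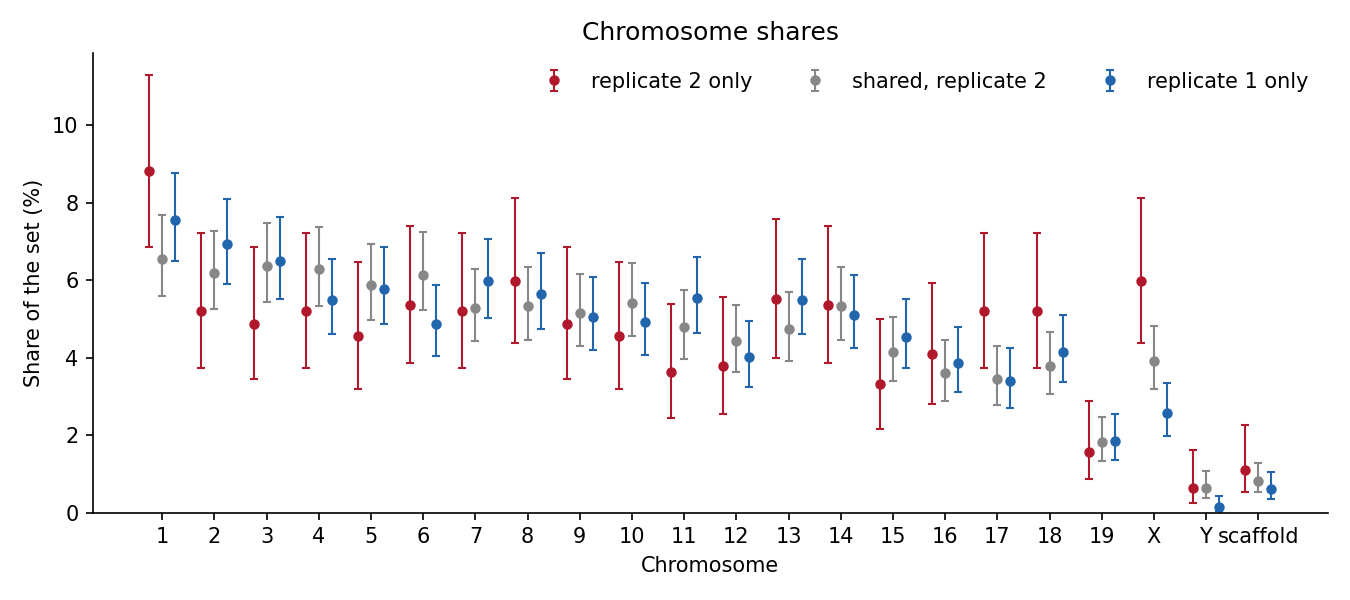
Share of each set of peaks (y axis, percent, with 95% Wilson intervals) on each chromosome and on scaffolds (x axis). On X the replicate 2 only peaks stand at 5.98%, shared replicate 2 peaks at 3.91% and replicate 1 only peaks at 2.58%.

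The 38 X members were seldom inside coding genes. Only Scml2, a Polycomb-related gene (chrX:161225503-161226998, 3.26-fold), and Reps2, an endocytosis adaptor gene (chrX:162604157-162604482, 2.30-fold), held a summit, which is 5.26% of the 38 (1.46 to 17.3). On the other assembled chromosomes 43.4% of members (39.4 to 47.4) were inside a coding gene. On X the share was 15.1% (9.05 to 24.2) for shared replicate 2 peaks and 29.6% (19.1 to 42.8) for replicate 1 only peaks. X members had a median length of 497 bp against 364 bp on the other assembled chromosomes, at a median fold of 2.75 against 2.79, and a median gap to replicate 1 of 521 kb. X peaks of the other sets were longer too, with 1178 against 448 bp for shared replicate 2 peaks and 402 against 337 bp for replicate 1 only peaks. The nearest coding genes of the 8 X members with the highest fold, named after their values were seen, were Esx1 with 2, Srsx, Ssxa1, Ssxb6, Smarca1, Scml2 and Samt4. Ssx and Samt genes belong to multicopy families of the mouse X.

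Members were assigned to 439 of 21779 protein-coding genes (2.02%), by the gene holding the summit or else the nearest within 100 kb. In all 474 members were assigned, 258 of them to 244 genes that held the summit. Of the 439 genes, 109 (24.8%) were also assigned a shared replicate 2 peak, which is 8.42% of the 1295 genes with such a peak. A replicate 1 only peak was assigned to 115 (26.2%), which is 8.75% of the 1314 genes with one. The other 266 (60.6%) had neither. Over all coding genes, 5.95% had a shared replicate 2 peak and 6.03% a replicate 1 only peak. Genes holding a member were long (median 145 kb per peak, beside 17.2 kb for all coding genes). The part of gene length in these shares was not tested.

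Gene lists were counted beside the 2.02% of all coding genes with a member, a share at which each list of under 50 genes would hold about 1 gene or none, so a count of 0 or 1 is no result about a list. None of 39 Hox genes and none of 9 TALE cofactor genes (the Pbx, Meis and Pknox genes) was assigned a member, beside 4 and 3 with a shared replicate 2 peak. The member nearest to Hoxa5 itself was 1126 kb away (chr6:51075174-51075477, 2.95-fold). In the list of 28 mesenchymal transcription factors of the lung, 1 gene had a member (3.57%) and 8 had a shared peak. It was Gli3, a transcription factor of the hedgehog pathway, which held a peak of 3.60-fold (chr13:15596755-15597091, −log10 q 11.3) 514 kb from replicate 1 and had no other peak. Among 15 hedgehog genes, of a median length of 65.1 kb beside 17.2 kb for all coding genes, 2 had a member (13.3%) and 5 a shared peak. The part of gene length was not tested. The 2 hedgehog genes with a member were Gli3 and Hhip, an inhibitor that binds hedgehog ligands (45.9 kb, chr8:79919890-79920403, 2.59-fold, −log10 q 3.36).

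Among other signalling genes, 1 of 19 FGF genes had a member, inside Fgfr2, the receptor for FGF10 in lung epithelium (chr7:130215860-130216127, 2.75-fold). Of 42 Wnt genes 1 had one, 53.2 kb from Sfrp2, a secreted Wnt modulator (chr3:83712349-83712652, 3.94-fold, −log10 q 11.6). Of 35 BMP and TGF-beta genes 1 had one, 53.0 kb from Bambi, a pseudoreceptor (chr18:3569048-3569839, 2.49-fold). Of 18 retinoic acid genes 1 had one, inside Aldh1a2, an enzyme of retinoic acid synthesis (chr9:71241673-71241977, 2.35-fold, −log10 q 2.16), 45.0 kb from a shared replicate 1 peak. Each of these 4 lists thus had a single member gene.

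In the endothelium list 3 of 22 genes had a member (13.6%), beside 2 with a shared replicate 2 peak and 3 with a replicate 1 only peak. Over all coding genes these shares were 2.02%, 5.95% and 6.03%. The 22 genes have a median length of 39.5 kb, beside 17.2 kb for all coding genes, and the part of gene length was not tested. Flt1, a VEGF receptor gene, held a peak of 4.06-fold (chr5:147601548-147601864, −log10 q 11.8), and Tek, the angiopoietin receptor gene, one of 3.03-fold (chr4:94752500-94752816). Prox1, a transcription factor of lymphatic endothelium, had one at 49.7 kb (chr1:190220355-190220686, 3.52-fold). None of these 3 genes had any other peak assigned. Itga8, an integrin gene of smooth muscle and mesenchyme, held one of 2.94-fold (chr2:12264115-12264429), the single gene of 16 in the smooth muscle list. Itga8 also had 2 shared peaks and 1 replicate 1 only peak. Fbn1, which encodes fibrillin of elastic fibres, held one of 2.83-fold (chr2:125501543-125501806), the single gene of 32 in the extracellular matrix list. No gene of the lung epithelium (38), cartilage (20), pericyte (10), nerve (20), blood (20) or ribosomal protein (26) lists had a member, beside 3, 5, 2, 2, 2 and 0 genes with a shared replicate 2 peak. At 2.02% of coding genes each of these lists would hold under 1 gene.

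The list of long genes, many of them neuronal adhesion genes, had 6 of 30 genes with a member (20.0%), the highest share of the 18 lists, and 18 of 30 (60.0%) with a shared replicate 2 peak. Pcdh9, a protocadherin gene, held a peak of 3.44-fold (chr14:93095069-93095327). Cntnap2, a neurexin family gene, held 2, the higher at 3.02-fold (chr6:46882109-46882384). Dlg2, a synaptic scaffold gene, held one of 2.98-fold within the long noncoding RNA gene Gm32353 (chr7:91953262-91953860). Csmd2 and Ptprd also had members. These 30 genes have a median length of 1293 kb, the highest of the 18 lists, and the part of gene length in their count was not tested.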

How the data were processed

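ChIP-seq libraries of HOXA5-FLAG lung were analysed from 1 deposited peak list per immunoprecipitate, so the authors called peaks per sample. Per the submitters' processing notes MACS3 3.0.1, Bowtie2 2.5.2, deepTools, bedtools 2.31.0, FastQC 0.12.1, SAMtools 1.18 and Trim Galore were used on mm10. Their settings, the control and any filter are not given in the sources used. Row names of the replicate 2 file bear a different replicate number, and the GEO label was followed. The deposited fold enrichment is a ratio at the summit by the authors' caller, and the deposited −log10 p and −log10 q are the authors' too. The deposited score was not used. Depth is unknown.

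A replicate 2 peak without a 1 bp overlap with replicate 1 was a member. Coordinates are 1-based. Of 49943 RefSeq genes on assembled chromosomes, 340 starting below 3 Mb outside Y were left out as likely scaffold positions, leaving 49603, of which 21779 were protein-coding. A summit was assigned to the shortest gene holding it, else to the nearest within 100 kb. Gene ends came without strand, exons or introns; transcription starts came from the RefSeq promoter table, with windows for 27025 genes; starts on chromosome 18 and scaffolds were not used here. Sets were compared by Fisher's exact test (two-sided, scipy 1.17.1, Python 3.11.15) with Benjamini-Hochberg adjustment in each family, checked on simulated data. Intervals are 95% Wilson.

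Named genes are those at the 15 highest folds among members of at most 1000 bp, the 5 longest, the 5 on each side of the overlap limit, genes with 3 or more members, up to 4 by fold of each of 18 gene lists and up to 15 near coding gene ends; an item this rule selects is not reported here. Members and lists were chosen with earlier results of these data known. Alternatives were other overlap rules, stricter −log10 q, a length limit, other gene distances and all annotated genes. A motif search around summits was not run because no genome was used here; promoter windows were searched instead.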

Additional observations from a re-analysis of the deposited data

Results flagged for a closer look

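Unplaced or alternative scaffolds held 7 members (1.10%, Wilson interval 0.535 to 2.26), a signal in sequence that no comparison with genes used. Shared replicate 2 peaks had 0.819% there and replicate 1 only peaks 0.621% (Fisher's exact, adjusted p = 0.747 and 0.624 against members). Of the 7, 6 lay on a scaffold without any replicate 1 peak. Their folds ran from 1.77 to 2.45, and the one with the highest −log10 q, 108, was 331 bp long.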

How the results depend on the processing

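Of 77 recomputed values, 60 kept their direction and side of the threshold, or stayed within the main interval or within 1.5 times the main count. The share of replicate 2 peaks without a partner moved from 22.4% to 30.5% (863 peaks) with reciprocal overlap of 50 percent, 43.8% (1239) with summits within 100 bp, 15.4% (347) at a −log10 q of at least 5 and 25.0% (583) for peaks of at most 1000 bp. Genes assigned fell from 439 to 244 with host genes only and 254 at a −log10 q of at least 5. Against shared peaks, the difference inside coding genes, 1.43 percentage points, turned to −2.50 with summits within 100 bp, −0.0473 for peaks of at most 1000 bp and −0.814 with all annotated genes; outside but within 100 kb it turned from 0.985 to −0.763 with reciprocal overlap, and farther away from −2.42 to 0.563 with summits within 100 bp. None of these passed under any setting. Against replicate 1 only peaks, all annotated genes gave −5.11 points inside and 5.00 points outside within 100 kb, both passing (Fisher's exact, adjusted p = 0.0402). The number of chromosome classes differing from shared peaks went from 0 to 1, which was X, with summits within 100 bp (4.13 points, Fisher's exact, adjusted p = 3.02e-06) and for peaks of at most 1000 bp (3.03 points, 0.0101); the cause was not tested. The X and transcription start differences from replicate 1 only peaks passed under all 6 alternatives, which were added after seeing the data, with 2.67 to 3.67 and −3.20 to −2.71 points. No paired analysis was possible because the inputs, which share replicate numbers with the immunoprecipitates, were not analysed here. Leaving out a replicate gave no value, since the rule needs both lists. Depth is unknown, so how far it sets the number of members cannot be told.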
